A study of Mus musculus with 20 samples.

Results

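The 10 genes described here are core members of the circadian clock: Arntl, Clock, Per1, Per2, Per3, Cry1, Cry2, Nr1d1, Nr1d2 and Dbp. They were taken by gene name from a table of raw read counts with 25719 rows, whatever their values, and all 10 were among the 12424 genes that passed the filter on low counts. The libraries came from primary keratinocytes, the main cell type of the epidermis, which were sorted from the ear and back skin of 20 mice. All mice carried floxed alleles (L2/L2) of Cyp11b1, the gene of the enzyme that makes corticosterone, the main glucocorticoid of mice. The knockouts (cKO) also carried K14-CreERTam, a tamoxifen-activated Cre recombinase under the promoter of keratin 14, which is active in basal keratinocytes. Their controls were littermates without Cre, and they received tamoxifen as well. The study set loss of skin glucocorticoid synthesis induced systemically against loss induced locally, with 5 mice in each of 4 groups. In the systemic groups (control and cKO) 100 µl of tamoxifen at 10 mg/ml in oil and ethanol was injected into the peritoneum on each of 5 days. In the topical groups (control and cKO) the back was shaved dry, and tamoxifen in ethanol was put on the ears (20 µl) and back (100 µl) on the same number of days. Cells were collected on day 6. The age and strain of the mice and the hour of collection are not given in the sources used here. The animals lived under 12 h of light and 12 h of dark, and clock transcripts move with the hour, so an hour that differed between groups or mice cannot be told apart from the comparisons below.

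The mammalian clock is a loop of transcription and translation. CLOCK and BMAL1, the product of Arntl, pair up and bind E-boxes in DNA, and so switch on the Per and Cry genes, Nr1d1, Nr1d2 and Dbp. PER and CRY proteins return to the nucleus and block the pair, while the REV-ERB receptors encoded by Nr1d1 and Nr1d2 repress Arntl through ROR elements. The factor encoded by Dbp drives a further set of genes through D-boxes. In skin the clock is known for timing DNA replication and repair, and Per1 is also switched on directly by the glucocorticoid receptor.

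The library totals ranged from 11588851 to 50082771 counts. The 8 keratinocyte markers summed to 99418 to 128865 CPM (read counts scaled to library size, here without and for single genes with edgeR's TMM factors) in every library, and no list for another skin cell type exceeded 694 CPM. Few reads lay on Cyp11b1 in either genotype, with at most 6 in any library, so the counts do not check the deletion. Satellite-like transcripts, predicted genes made of pericentromeric repeats, stood above 50 CPM in 6 libraries, namely all 5 systemic controls (79.4 to 11674 CPM) and systemic cKO 2 (37287 CPM). In the other 14 they reached at most 42.5 CPM, so this split nearly coincides with the systemic control group. Because these are bulk samples, fewer cells of a type and less RNA per cell cannot be told apart.

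Promoter windows were available from RefSeq (GRCm38.p6) for 9 of the 10 genes, each reaching from 250 bases before to 50 bases after a transcript start. Per2 had no entry. They were searched on both strands for elements that clock factors or the glucocorticoid receptor bind. The stretches with a match are shown because they carry the letters through which the loop is known to act on itself. Each is written 5′ to 3′ on the strand of its gene, with the matched element in capitals.
Arntl: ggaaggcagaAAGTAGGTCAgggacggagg
Per1: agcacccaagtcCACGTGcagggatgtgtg
Per3: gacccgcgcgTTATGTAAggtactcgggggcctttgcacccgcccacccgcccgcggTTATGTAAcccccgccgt
Cry1: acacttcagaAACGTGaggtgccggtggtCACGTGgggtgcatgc
Cry2: acacatggtgggAACGTGagggggcggagc
Nr1d1: cgcacagatctcAACGTGccggctgctgga

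The Arntl stretch (chr7:113207528-113207557, plus strand) holds a ROR element, the type of site that REV-ERB receptors occupy, inside an Arntl exon. ROR elements occurred in 0.435% of all 32851 promoter windows. The Per1 stretch (chr11:69098771-69098800, plus strand) holds the E-box CACGTG, which occurred in 7.15% of windows. The Per3 stretch (chr4:151044806-151044880, minus strand) holds the D-box TTATGTAA at 2 places. A D-box (TTATGTAA or TTACGTAA) was found in 1.06% of windows. Cry1 (chr10:85185099-85185143, minus strand) had both an E-box and an E-prime box, which reads CACGTT or, on the other strand, AACGTG. Cry2 (chr2:92434218-92434247, minus strand) and Nr1d1 (chr11:98775388-98775417, minus strand) each had 1 E-prime box, an element present in 4.68% of windows. No searched element was matched in the windows of Clock, Nr1d2 or Dbp. Neither the cyclic AMP response element TGACGTCA (1.79% of windows) nor the glucocorticoid response element (0.475%) was matched in any window of these genes. A match describes letters only, and a window without one says nothing about sites elsewhere in the gene.

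The 10 genes differed widely in level. On a per-length scale (CPM per kilobase of GENCODE exon), the medians over the 20 libraries ran from Nr1d1 at the top, through Cry2, Per1, Cry1, Nr1d2, Dbp, Arntl, Per3 and Clock, to Per2. Nr1d1, one of the REV-ERB repressors, stood at 25.8 CPM per kb (10.8 to 52.4). Then came Cry2 at 6.78 (4.18 to 15.7), Per1 at 6.32 (1.76 to 13.5) and Cry1 at 6.001 (3.61 to 9.28), 3 inhibitors of the CLOCK and BMAL1 pair. Nr1d2, the second REV-ERB gene, had a median of 4.94 CPM per kb (3.17 to 7.31). The output gene Dbp was at 2.91 CPM per kb (1.36 to 12.2), with Arntl at 2.63 (1.43 to 3.59). The 3 lowest were Per3 at 0.855 CPM per kb (0.415 to 3.04), Clock at 0.848 (0.315 to 1.83) and Per2 at 0.365 (0.0918 to 1.15). The ranges of every pair of neighbours in this order overlapped. Per2 rested on as few as 13 reads in a library, while Nr1d1 had up to 3021. Exons of Dbp overlap Sphk2 on the other strand over 18% of their length, and those of Nr1d1 overlap Thra over 8.55%. Whether counting used the strand is not given in the sources used here, so some reads of those genes may belong to their neighbours.

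Of the activators, Arntl was higher in the systemic groups and Clock overlapped in all groups. Arntl (ENSMUSG00000055116, chr7:113207465-113314126) had levels of 10.8, 16.0, 18.9, 20.1 and 16.1 CPM in the topical controls and 14.3, 19.4, 13.8, 18.7 and 14.5 CPM in the topical cKO. In the systemic controls it had 23.4, 27.0, 23.4, 14.5 and 25.3 CPM, and in the systemic cKO 24.7, 22.9, 22.1, 22.4 and 26.2 CPM. All 5 systemic cKO libraries lay above all 5 topical cKO libraries, while systemic control 5 alone kept the control groups from parting. Clock (ENSMUSG00000029238, chr5:76209868-76304792) ranged over 7.95 to 12.1 CPM in topical controls, 5.48 to 16.3 in topical cKO, 9.22 to 25.1 in systemic controls and 4.33 to 18.5 in systemic cKO. Each of these ranges overlapped every other.

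Among the inhibitors, the group means of Per2, Per3, Cry1 and Cry2 were highest in the systemic controls, while Per1 was high in both systemic groups. Per1 (ENSMUSG00000020893, chr11:69095217-69109960), the member of its family that stimuli induce fastest, had levels of 33.3, 32.1, 9.90, 21.0 and 31.9 CPM in topical controls and 36.0, 29.2, 42.2, 30.6 and 35.2 CPM in topical cKO. It had 46.9, 30.6, 68.8, 70.9 and 38.6 CPM in systemic controls and 76.3, 28.1, 48.1, 51.7 and 57.8 CPM in systemic cKO. Systemic control 3 and systemic cKO 4 lay within the range of the topical controls, and the other 8 systemic libraries above it. Per2 (ENSMUSG00000055866, chr1:91415982-91459324), whose protein binds CRY in the repressor complex, was at 2.12, 1.58, 1.77, 1.57 and 2.25 CPM in topical controls and 2.74, 3.23, 2.15, 4.60 and 1.13 CPM in topical cKO. The systemic controls had 1.47, 4.15, 1.65, 6.72 and 5.22 CPM of Per2 and the systemic cKO 2.73, 0.538, 1.51, 2.59 and 1.69 CPM. Systemic controls 3, 5 and 6 and topical cKO 5 were high, and systemic controls 1 and 4 stood among the remaining libraries.

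Per3 (ENSMUSG00000028957, chr4:151003652-151044665), a paralogue thought to matter less for the core rhythm, had levels of 9.68, 6.78, 7.71, 4.36 and 4.92 CPM in topical controls. In topical cKO it was at 6.11, 8.30, 6.00, 9.96 and 4.88 CPM. In systemic controls it was at 10.8, 20.7, 9.28, 29.2 and 21.1 CPM and in systemic cKO at 13.0, 3.98, 5.59, 9.30 and 8.13 CPM. The 3 systemic controls that were high for Per2 stood above every other library for Per3. Systemic cKO 2, the one cKO library with abundant satellite-like transcripts, had the highest Per3 of its group.

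Cry1 (ENSMUSG00000020038, chr10:85131700-85185064), a strong inhibitor of the CLOCK and BMAL1 pair, had 13.7, 12.0, 23.1, 17.0 and 19.6 CPM in topical controls and 25.0, 27.2, 26.9, 28.5 and 23.4 CPM in systemic controls, groups that did not overlap. Its cKO levels were 23.0, 17.5, 17.4, 21.7 and 12.9 CPM after topical and 31.0, 20.2, 14.2, 19.9 and 16.9 CPM after systemic tamoxifen. Cry2 (ENSMUSG00000068742, chr2:92403646-92434043), its partner in the complex, had 42.6, 40.2, 37.9, 26.6 and 34.8 CPM in topical controls and 46.8, 48.0, 61.9, 99.5 and 64.8 CPM in systemic controls. These control groups did not overlap either. The cKO levels of Cry2 were 48.1, 36.8, 45.2, 42.1 and 26.4 CPM after topical and 67.4, 41.5, 39.1, 56.9 and 43.1 CPM after systemic tamoxifen, with overlap.

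For the REV-ERB genes and Dbp, the ranges of all 4 groups overlapped. Nr1d1 (ENSMUSG00000020889, chr11:98767932-98775333) was at 104, 101, 39.7, 33.3 and 43.8 CPM in topical controls and 83.7, 61.4, 106, 77.1 and 58.7 CPM in topical cKO. Systemic controls had 77.2, 58.0, 86.6, 161 and 59.0 CPM and systemic cKO 103, 50.6, 81.4, 112 and 97.7 CPM. Topical controls 1 and 3 stood apart from the other 3 of their group, and systemic control 5 was the highest of all libraries. Nr1d2 (ENSMUSG00000021775, chr14:18204054-18239127) was the most even gene across groups, with means of 26.6 ± 8.15 CPM (SD, n = 5) in topical controls, 27.7 ± 3.01 in topical cKO, 27.0 ± 6.34 in systemic controls and 24.2 ± 5.95 in systemic cKO.

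Dbp (ENSMUSG00000059824, chr7:45705088-45710203) had levels of 30.8, 22.6, 6.55, 4.36 and 8.28 CPM in topical controls and 17.7, 17.1, 19.1, 23.8 and 8.80 CPM in topical cKO. It was at 4.60, 4.20, 8.62, 36.5 and 7.44 CPM in systemic controls and 8.10, 4.06, 7.38, 13.0 and 13.4 CPM in systemic cKO. Topical controls 1 and 3 and systemic control 5 were again the high libraries of their groups, and all 4 groups overlapped.

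**Figure D1:**
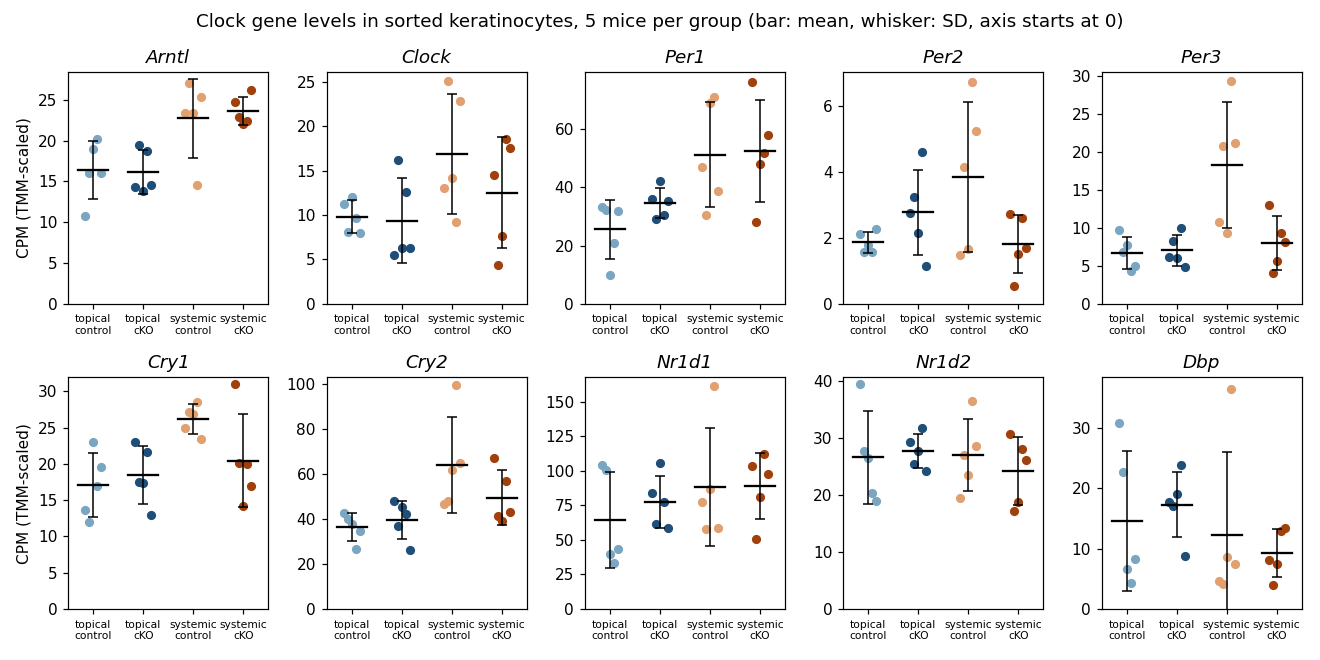
Level of each clock gene in CPM (vertical axis, starting at 0) in the 4 groups, with 1 point per mouse, a bar at the mean and a whisker of 1 SD (n = 5; that of Dbp in systemic controls stops at the axis). Per3, Cry1 and Cry2 sit highest in the systemic controls, and Arntl sits higher in both systemic groups, while Dbp and Nr1d1 are high in systemic control 5 and in topical controls 1 and 3.

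Genotype made no called difference to any clock gene after topical tamoxifen. All comparisons used edgeR's quasi-likelihood test over the 20 libraries, with p-values adjusted by Benjamini-Hochberg over all 12424 genes and a threshold of 0.05. None of the 10 genes passed (0.129% of all genes did), and none had an unadjusted p under 0.05, against 5.66% of all genes. The smallest adjusted p was 0.984, for Per1, whose log2 fold change of cKO over control was 0.43 (SE 0.29). The largest log2 difference was that of Per2 at 0.60 (SE 0.42), and the smallest in size that of Arntl at -0.01 (SE 0.17). The other 7 genes lay between Clock at -0.05 (SE 0.36) and Nr1d1 at 0.27 (SE 0.33). Of the 10 values, 8 were positive, with a median of 0.13 against 0.020 over all genes. With a SE of 0.58, a difference in Dbp would have had to be large to be seen.

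After systemic tamoxifen, Per3 and Per2 were lower in the knockouts than in the controls, without passing the threshold. Mean Per3 was 8.01 ± 3.50 CPM in cKO against 18.2 ± 8.24 CPM in controls (SD, n = 5), a log2 fold change of -1.22 (SE 0.32, edgeR adjusted p = 0.0517). Mean Per2 was 1.81 ± 0.892 against 3.84 ± 2.28 CPM, at -1.15 (SE 0.42, edgeR adjusted p = 0.176). The values of both genes overlapped between the groups. No clock gene was called, against 1.89% of all genes, and 2 had an unadjusted p under 0.05, against 15.3%. DESeq2's Wald test called Per3 (adjusted p = 0.0134). So did edgeR with systemic cKO 2 left out (-1.45, adjusted p = 0.00958), without systemic control 1 (-1.35, adjusted p = 0.0283) and without systemic control 4 (-1.38, adjusted p = 0.0418). With the level of satellite-like transcripts as a covariate, the Per3 value was -0.66 (edgeR unadjusted p = 0.0886, adjusted p = 0.9997) and that of Per2 -0.54. That covariate nearly repeats the genotype in the systemic groups, and no gene at all was called with it.

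The other 8 genes gave systemic values nearer 0. Arntl (0.05, SE 0.17), Per1 (0.03, SE 0.29) and Nr1d1 (0.01, SE 0.33) were almost level between genotypes. Cry1 (-0.36, SE 0.20), Cry2 (-0.37, SE 0.21), Dbp (-0.41, SE 0.59) and Clock (-0.46, SE 0.36) had lower means in the cKO (adjusted p = 0.394 to 0.808). Nr1d2 was at -0.17 (SE 0.20). The median of the 10 log2 values was -0.37, against -0.0045 over all genes.

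The difference between the genotype effects at the 2 routes was tested directly as an interaction, systemic minus topical. No clock gene passed, against 0.250% of all genes. Per2 (log2 -1.76, SE 0.60, edgeR adjusted p = 0.174) and Per3 (-1.31, SE 0.46, adjusted p = 0.185) had the largest values and were the only 2 genes with an unadjusted p under 0.05, which 14.0% of all genes had. With the satellite covariate Per2 was at -1.01 and Per3 at -0.64. So a genotype effect on these genes that differs by route is not shown. The other genes ran from Dbp at -0.67 (SE 0.83) to Arntl at 0.07 (SE 0.24).

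**Figure D2:**
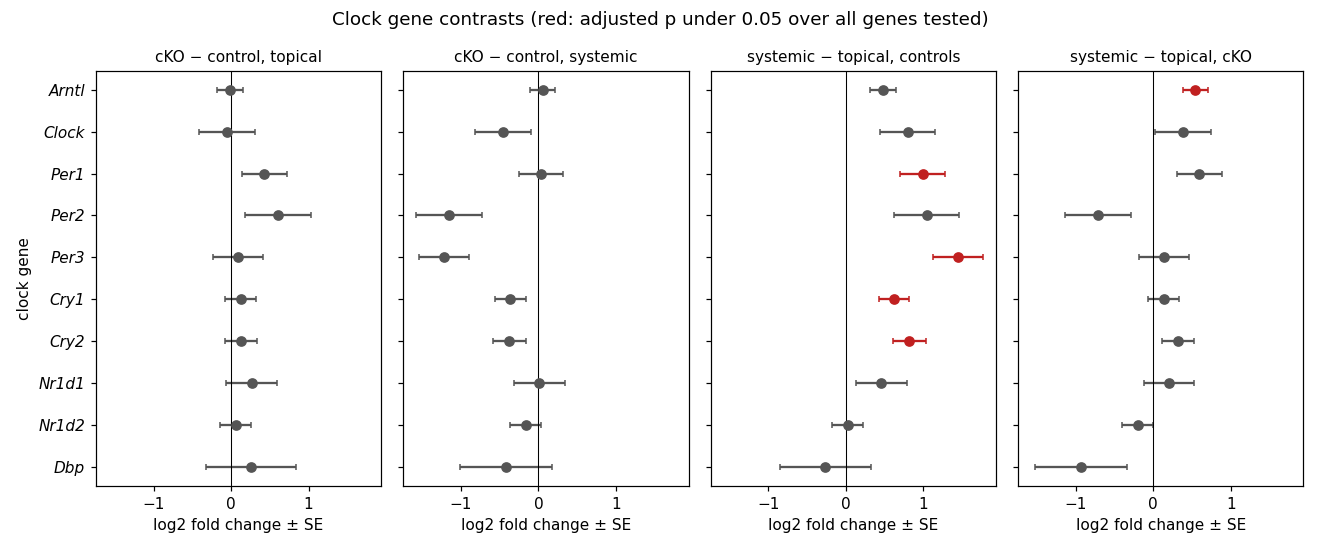
Log2 fold change (horizontal axis) with 1 SE for each clock gene in the 4 pairwise comparisons, each in its own panel, with called values in red. The called values are Per1, Per3, Cry1 and Cry2 in the comparison of routes in controls and Arntl in that of routes in cKO.

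The route of tamoxifen was the contrast in which clock genes passed the test. In controls, Per1, Per3, Cry1 and Cry2, all of them inhibitors of CLOCK and BMAL1, were higher after injection than after topical treatment. That is 4 of 10 genes, all upward, where 18.3% of all genes were called, 10.2% higher and 8.16% lower. At an unadjusted p under 0.05 there were 7 of 10, against 32.9% of all genes. Per3 rose by 1.45 on the log2 scale (SE 0.32, edgeR adjusted p = 0.00421), or 2.73-fold. Per1 rose 1.99-fold (log2 0.99, SE 0.29, adjusted p = 0.0219). Cry2 rose 1.76-fold (log2 0.82, SE 0.21, adjusted p = 0.0102) and Cry1 1.54-fold (log2 0.62, SE 0.20, adjusted p = 0.0325). Cry1 and Cry2 were the clock genes whose 2 control groups did not overlap; 7.54% of all genes did not overlap with the systemic group higher.

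The remaining 6 genes did not pass in controls. Arntl missed the threshold narrowly (log2 0.48, SE 0.17, adjusted p = 0.0501). DESeq2's Wald test called it (adjusted p = 0.0428). So did edgeR without topical control 5 (adjusted p = 0.0465) or 6 (0.0345) or systemic control 5 (0.0107). Per2 was at 1.04 (SE 0.42, adjusted p = 0.0858, and 0.24 with the satellite covariate), Clock at 0.79 (SE 0.36) and Nr1d1 at 0.46 (SE 0.33). Per2 was called without systemic control 1 (edgeR adjusted p = 0.0357), and Clock with only the libraries compared (0.0304). The lowest were Nr1d2 at 0.02 (SE 0.20) and Dbp at -0.27 (SE 0.59). Of the 10 values, 9 were positive, with a median of 0.71 against 0.00081 over all genes.

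Per3 and Cry2 were called whichever control library was left out. Per1 lost its call without systemic control 4 (log2 0.86, edgeR adjusted p = 0.0620) or 5 (0.84, adjusted p = 0.0565). Cry1 kept its call in 4 of the 10 omissions, with adjusted p reaching 0.0922 without topical control 3. It was not called either without topical control 1 (adjusted p = 0.0835) or 6 (0.0550), or without systemic control 3 (0.0666), 4 (0.0609) or 5 (0.0595). With the satellite covariate, which nearly repeats the route in controls, none of the 4 was called: Per1 was at 0.75, Per3 at 0.70, Cry2 at 0.53 and Cry1 at 0.31. All stayed positive.

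In the knockouts, Arntl was the only clock gene called by route. It was higher after injection, at 23.6 ± 1.74 CPM against 16.2 ± 2.67 CPM (SD, n = 5), 1.46-fold (log2 0.54, SE 0.17, edgeR adjusted p = 0.0433). That is 1 of 10 genes, near the 9.22% of all genes called, 5.19% higher and 4.02% lower. It was also the only one with an unadjusted p under 0.05, against 23.1% of all genes. The Arntl groups did not overlap, as was so for 4.07% of all genes with the systemic group higher. Arntl stayed called only without topical cKO 3 or 5. Without any one of the other 8 cKO libraries the adjusted p was between 0.0518 and 0.111, with log2 values from 0.50 to 0.57. With the satellite covariate, which in the cKO separates a single library, Arntl was at 0.54 (adjusted p = 0.0423). In controls Arntl was at log2 0.48 (SE 0.17, edgeR adjusted p = 0.0501), and its interaction was 0.07 (SE 0.24, adjusted p = 0.931). So a route effect on Arntl particular to the knockouts is not shown.

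The 4 genes called in controls had smaller values in the knockouts. Per1 was at log2 0.59 (SE 0.29, adjusted p = 0.220), Cry2 at 0.32 (SE 0.21), Per3 at 0.14 (SE 0.32) and Cry1 at 0.13 (SE 0.20). The difference between the routes' effects in controls and knockouts is the interaction given above, and for none of the 4 did it pass (adjusted p = 0.703 for Per1, 0.464 for Cry2, 0.446 for Cry1 and 0.185 for Per3). Dbp (-0.93, SE 0.59) and Per2 (-0.71, SE 0.43) had the lowest values of the set, and Clock (0.38, SE 0.36), Nr1d1 (0.20, SE 0.33) and Nr1d2 (-0.20, SE 0.20) lay between. The genotype and route comparisons share libraries, so their values are not independent of one another.

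Route came with differences in handling and in other markers. The topical mice were shaved and received ethanol on the skin, and the injected mice received an oil, which cannot be told apart from the route itself. The 5 sebaceous gland markers summed to 149 to 380 CPM in topical controls and 33.9 to 358 in systemic controls, and to 175 to 694 CPM in topical cKO and 29.0 to 316 in systemic cKO. The 7 leukocyte markers summed to 6.32 to 12.3 CPM in topical controls and 6.54 to 26.7 in systemic controls, and to 6.03 to 11.5 CPM in topical cKO and 14.7 to 30.9 in systemic cKO. No marker was at 0 in every library. The part of these cells in the clock results was not tested. Sex, read from Y-linked genes, was 2 to 3 males per group, and with it as a covariate the same 4 genes in controls and Arntl in the knockouts were called.

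Per1 also answers to glucocorticoids and to acute stimuli, so genes of both kinds were read beside it. Fkbp5, which encodes a cochaperone induced by the glucocorticoid receptor, fell after injection in controls, from 3.63 ± 1.33 to 1.34 ± 0.534 CPM (SD, n = 5; log2 -1.39, edgeR adjusted p = 0.0275), while Per1 rose. In knockouts Fkbp5 was at 5.01 ± 2.43 CPM after topical and 2.14 ± 1.43 CPM after systemic tamoxifen (log2 -1.25, adjusted p = 0.0576). DESeq2's Wald test called it there (adjusted p = 0.0382). So did edgeR with the replicate number as a block (adjusted p = 0.0348), sex (0.0458) or satellite-like transcripts (0.0384) as a covariate. It was also called without topical cKO 4 (0.0342) or 7 (0.0442) or systemic cKO 6 (0.0212). Tsc22d3, another glucocorticoid-induced gene, was at 120 ± 23.5 CPM in topical controls, 102 ± 33.6 in topical cKO, 92.6 ± 28.5 in systemic controls and 145 ± 46.7 in systemic cKO. Of 9 tested glucocorticoid-induced genes, 1 was called higher (Cdkn1a, named after its values were seen) and 1 lower (Fkbp5) by route in controls, near the 10.2% and 8.16% of all genes, with a median log2 of -0.19, and none in knockouts, with a median of 0.13. By genotype none of the 9 was called at either route. The Fkbp5 call in controls was lost without topical control 6 (adjusted p = 0.0714) or systemic control 1 (0.0537), 3 (0.0508) or 4 (0.0646), and with the satellite covariate (log2 -0.71).

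Some immediate early genes, which cells switch on within minutes of a stimulus, were also higher after injection. Fos rose from 10116 ± 1835 to 18012 ± 4817 CPM in controls (log2 0.83, edgeR adjusted p = 0.0388) and from 8644 ± 2959 to 16328 ± 3677 CPM in knockouts (log2 0.92, adjusted p = 0.0386). The list of 14 genes also held the heat shock genes Hspa1a and Hspa1b, and it shared Dusp1 with the glucocorticoid-induced list. Of the 14, 5 were called higher and none lower by route in controls, with a median log2 of 0.89, where 10.2% of all genes were called higher. In the knockouts 5 were called higher and none lower, with a median of 0.66 and 14 positive values, where 5.19% of all genes were called higher. By genotype none was called after topical tamoxifen, where 0.129% of all genes were. After systemic tamoxifen 1 was called, where 1.89% of all genes were. It was Fosb, a partner of JUN named after its values were seen. Fosb was higher in the cKO (log2 1.71, SE 0.31, adjusted p = 0.00521), whichever library was left out, but not called with the satellite covariate (1.16, adjusted p = 0.797) or with only the libraries compared (adjusted p = 0.0611).  Among the omissions, the Fos call in controls held only without topical control 3 or systemic control 6, with adjusted p up to 0.0877 otherwise. It was lost with the satellite covariate (log2 0.88, adjusted p = 0.301). The same was so with no filter on low counts (edgeR adjusted p = 0.0959), only the libraries compared (0.0598) or the replicate number as a block (0.0722). In knockouts the Fos call held only without topical cKO 4 or 7 or systemic cKO 6 (up to 0.106 otherwise). There it was also lost with no filter on low counts (edgeR adjusted p = 0.0874) or only the libraries compared (0.0717). Fos stood at 5766 to 22617 CPM over the libraries of all 4 groups, which came from cells sorted from skin. The part of cell isolation in the levels of these genes was not tested. Whether their state had a part in the level of Per1 was not tested either.

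A further 25 genes of the clock pathway were examined, of which 23 passed the filter on low counts (Rorb and Fbxl21 did not). By genotype none was called at either route or in the interaction, with 1, 2 and 3 of 23 genes at an unadjusted p under 0.05 (topical, systemic, interaction), against 5.66%, 15.3% and 14.0% of all genes. By route in controls 3 of 23 were higher and 1 lower, near the 10.2% and 8.16% of all genes, so the list did not stand out from all genes. Usp2, a deubiquitinase that rhythmic tissues express in phase with the Per genes, rose from 12.8 ± 3.66 to 28.02 ± 6.28 CPM (SD, n = 5; log2 1.14, SE 0.29, edgeR adjusted p = 0.00968). Csnk1e, a kinase that marks PER proteins for degradation, rose from 3.78 ± 0.616 to 6.85 ± 1.55 CPM (log2 0.86, SE 0.23, adjusted p = 0.0142). Btrc, part of the ubiquitin ligase that recognises phosphorylated PER, rose from 6.83 ± 0.902 to 9.62 ± 1.90 CPM (log2 0.49, SE 0.15, adjusted p = 0.0258). Usp2 and Csnk1e were called whichever control library was left out, and Btrc was not called without topical control 3 or systemic control 3, 4, 5 or 6 (adjusted p = 0.0551 to 0.0758). Btrc also lost its call with no filter on low counts (edgeR adjusted p = 0.0643), only the libraries compared (0.0506) or the replicate number as a block (0.0638). With the satellite covariate none of the 3 was called, at 0.52 for Usp2, 0.16 for Csnk1e and 0.29 for Btrc.

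Nampt, the rate-limiting enzyme of NAD salvage and an E-box target, fell from 43.1 ± 9.92 to 30.1 ± 3.84 CPM in controls (log2 -0.52, SE 0.18, adjusted p = 0.0483). It also fell in knockouts, from 48.5 ± 8.23 to 32.5 ± 8.69 CPM (log2 -0.57, SE 0.18, adjusted p = 0.0465). Bhlhe41, a repressor that competes for E-boxes, fell in knockouts from 6.72 ± 4.52 to 1.87 ± 0.701 CPM (log2 -1.87, SE 0.41, adjusted p = 0.00548). Rora, which activates Arntl through the same elements that REV-ERB receptors bind, rose in knockouts from 247 ± 49.8 to 386 ± 61.2 CPM (log2 0.65, SE 0.20, adjusted p = 0.0416). Rora also had a higher mean after injection in controls, at 387 ± 99.1 against 267 ± 30.7 CPM, without being called. By route in the knockouts 1 of 23 genes was called higher and 2 lower, against 5.19% and 4.02% of all genes. Bhlhe41 was called whichever cKO library was left out. Among the omissions, Rora was called only without topical cKO 4 or systemic cKO 7 (adjusted p up to 0.110 otherwise). Its call was also lost with no filter on low counts (edgeR adjusted p = 0.0818), only the libraries compared (0.0752) or the replicate number as a block (0.0608). Among the omissions, Nampt was called in controls only without topical control 3 or 6 or systemic control 1 (up to 0.130 otherwise). In controls it was not called with the satellite covariate (log2 -0.36, adjusted p = 0.578) or with no filter on low counts (0.0586). In knockouts Nampt was called only without topical cKO 3 or systemic cKO 4 (up to 0.126 otherwise). There its call was also lost with no filter (edgeR adjusted p = 0.0692) or only the libraries compared (0.0897). The median log2 value of the 23 genes was 0.017 by route in controls and -0.14 in knockouts.

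Relatives of the core genes were not called in any comparison. Npas2, which can take the place of Clock, had means of 3.11 ± 0.931 CPM in topical controls, 3.41 ± 0.914 in topical cKO, 4.33 ± 1.16 in systemic controls and 4.13 ± 1.28 in systemic cKO. The D-box activators Tef (means of 19.4 to 24.7 CPM over the 4 groups) and Hlf (6.69 to 11.6), the D-box repressor Nfil3 (33.4 to 41.3) and the CLOCK inhibitor Ciart (3.21 to 5.03) were at low to moderate levels in all groups. Bhlhe40, the most abundant of them, had group means from 414 ± 56.7 CPM in systemic cKO to 576 ± 132 CPM in topical cKO.

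Mice of 1 group differed from one another most in Dbp and least in Arntl. The SD of log2 CPM within groups was 0.966 for Dbp, percentile 97.1 of all genes tested, where the median was 0.346. Per2 (SD 0.751), Clock (0.654), Nr1d1 (0.570), Per3 (0.569) and Per1 (0.536) followed, between percentiles 92.9 and 80.9. Cry2 (0.351), Nr1d2 (0.335) and Cry1 (0.330) lay near the median gene, and Arntl (0.279) at percentile 34.2. Counting error enters these SDs most for the genes with the fewest reads, whose lowest counts in a library were 13 for Per2, 56 for Per3, 61 for Dbp and 72 for Clock. The library with the highest Clock of each group had a TMM factor of 1.10 to 1.23, and that with the lowest 0.817 to 0.987. How far differences between libraries, and not between mice, made these SDs was not tested.

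In the textbook loop Arntl peaks opposite to the E-box genes Nr1d1, Dbp and Per3, so Arntl was set against each across mice, after subtracting each group's mean. Mice with less Arntl than their group had more Nr1d1 (n = 20, Pearson r = -0.71, permutation p = 0.00437, 0.0131 adjusted over the 3 relations; Spearman rho = -0.65, permutation p = 0.00498, adjusted 0.0149). For Dbp r was -0.65 (permutation p = 0.0206, adjusted 0.0309) and rho -0.47 (p = 0.0514, adjusted 0.0771). For Per3 r was -0.18 (permutation p = 0.521) and rho -0.036 (p = 0.885), so no relation was seen. The p-values come from 100000 two-sided permutations within groups. The library with the highest Arntl of each group had a TMM factor of 1.08 to 1.23, and that with the lowest 0.780 to 1.05. Mitochondrial genes took 5.28% to 7.25% of the counts in the former and 2.67% to 5.28% in the latter. The part of these library traits in the relations was not tested.

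These relations rest on a pair of mice. Arntl deviated from its group mean by -0.61 in systemic control 5 and by -0.57 in topical control 1, on the log2 scale. Without both (n = 18), r was -0.41 for Nr1d1 (permutation p = 0.126), -0.11 for Dbp (p = 0.699) and 0.48 for Per3 (p = 0.0328, adjusted 0.0983), so the first 2 no longer held and the last turned its sign. Within the 10 topical libraries r was -0.72 for Nr1d1 (permutation p = 0.0266, adjusted 0.0797), while rho was -0.77 (p = 0.00741, adjusted 0.0222) and still passed, and -0.57 for Dbp (p = 0.138). Within the 10 systemic libraries it was -0.69 for Nr1d1 (permutation p = 0.0789) and -0.74 for Dbp (p = 0.118). With systemic control 5 alone left out, the Nr1d1 relation had r = -0.60 (adjusted permutation p = 0.103). The Dbp relation lost its call without systemic control 5 (r = -0.44, adjusted permutation p = 0.272) or 3 (0.0532), and without topical control 1 (0.113), 5 (0.0525) or 6 (0.0686).

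**Figure D3:**
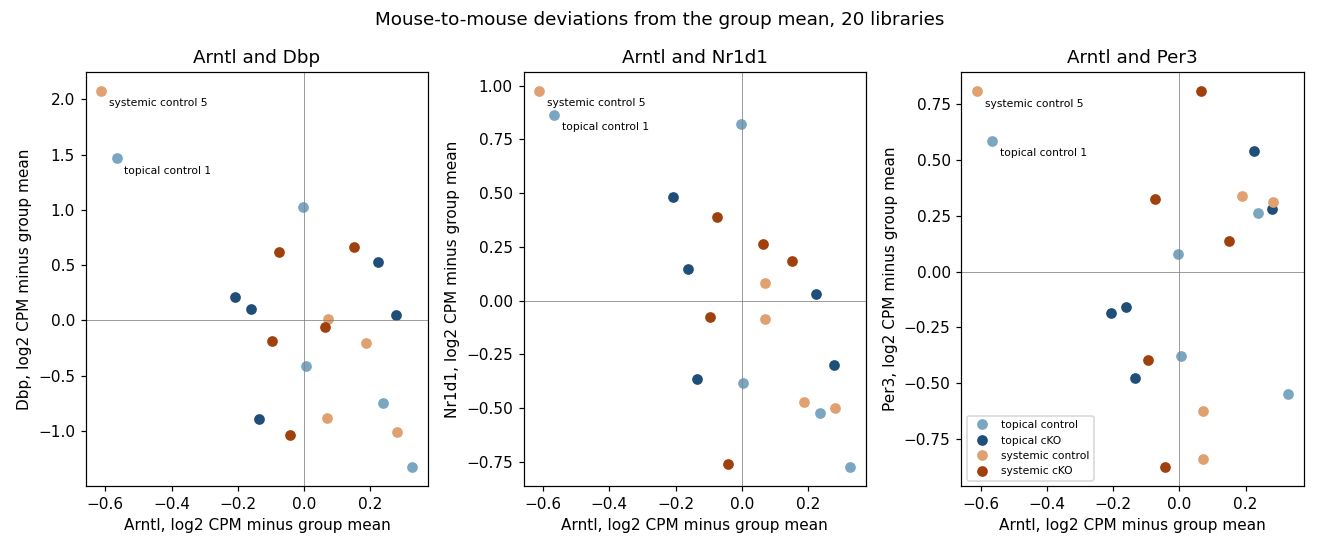
Deviation of Dbp, Nr1d1 and Per3 from the group mean (vertical axes, log2 CPM) against that of Arntl (horizontal axes), with 1 point per library coloured by group. The 2 libraries with the lowest Arntl deviations, systemic control 5 and topical control 1, lie at the upper left in the Dbp and Nr1d1 panels, and r is -0.65, -0.71 and -0.18.

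The genes most like a clock gene across mice were ranked by Pearson r of the same group-centred log2 CPM over the 20 libraries, which share depth and handling, and these values are descriptions. Dbp went most closely with Nr1d1 (0.91), Ccnd2 (0.84), Tef (0.83), Ccnd1 (0.82) and Ciart (0.80), of which Nr1d1, Tef and Ciart are clock genes and Ccnd1 and Ccnd2 encode D-type cyclins. At the other end were Mto1 (-0.85), Ston2 (-0.84), Pcgf3 (-0.77), Aknad1 (-0.74) and AI597479 (-0.72). Arntl went with Ap1s2 (0.83), Timp2 (0.82), Atf2 (0.81), Mosmo (0.79) and Zfp599 (0.78), and against Anxa7 (-0.79), Smim8 (-0.79), Aldh4a1 (-0.78), Limk2 (-0.76) and Bcat2 (-0.74). No clock gene stood in the Arntl list. In it Ap1s2, Timp2, Mosmo and Zfp599 had low medians, of 2.21, 1.58, 0.762 and 1.33 CPM. Each list holds the extremes of a ranking over all tested genes but the predicted ones. Per1 went with Tmsb10 (0.81), Avpi1 (0.81), Map3k11 (0.79), Cxcl16 (0.77) and Bax (0.77), and against Vma21 (-0.87), Ints13 (-0.85), Dcun1d1 (-0.82), Tmem184c (-0.81) and Adam17 (-0.79). Among the clock genes themselves, Per3 went with Per2 (0.87) and with Nr1d2 (0.87), and Dbp with Cry2 (0.76) and Nr1d2 (0.76).

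**Figure D4:**
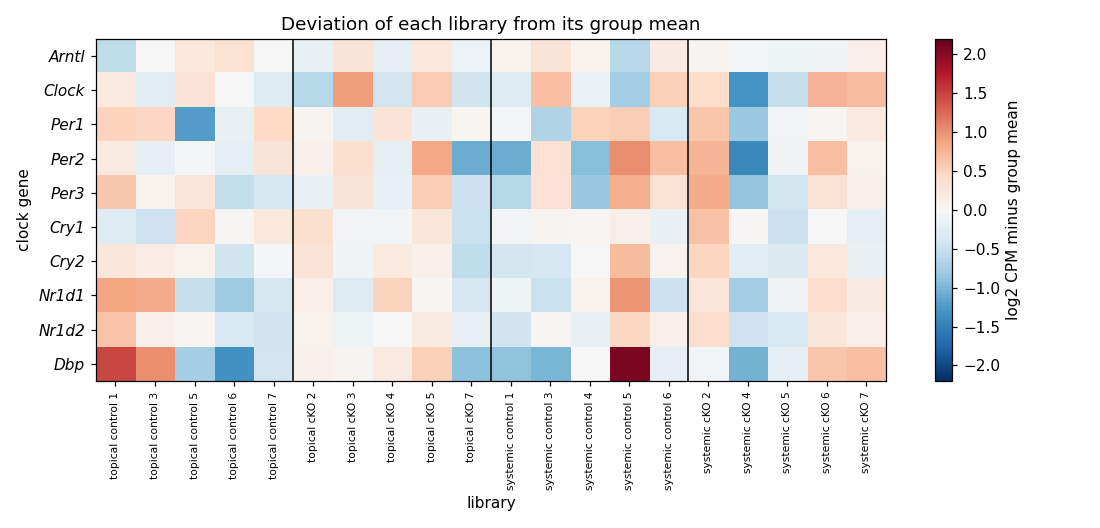
Deviation of each library (horizontal axis) from its group mean for each clock gene (vertical axis), as log2 CPM in colour. Systemic control 5 is above its group in Dbp and Nr1d1 and at -0.61 in Arntl.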

How the data were processed

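RNA of the sorted keratinocytes of each mouse was made into SmartSeq II libraries and sequenced, per the labels' protocols. Per the submitters' processing notes, STAR and featureCounts were used with the GRCm38 (mm10) genome. Their versions, settings and strand option are not given in the sources used here. The authors deposited raw counts per gene, not normalized, in 1 table of 20 libraries, which were grouped by the genotype and route in their labels.

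Counts were scaled by TMM and tested with edgeR 4.0.16 (R 4.3.3; filterByExpr with a minimum count of 10 and a minimum total of 15; robust quasi-likelihood F test, 1 fit over all 4 groups). This gave 5 contrasts, with Benjamini-Hochberg adjustment over 12424 genes and a threshold of 0.05. CPM are TMM-scaled except in sums of markers and satellite-like transcripts, and log2 CPM used a prior count of 2. SEs are the log2 fold change divided by the square root of F. Exon lengths and positions came from GENCODE M21 (GRCm38). P-values measure the spread between mice. Alternatives were DESeq2 1.42.0, its size factors in edgeR, no filter, only the libraries compared, the replicate number as a block, sex, satellite-like transcripts, and each library left out. The edgeR steps were tested on simulated data.

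The members and lists were chosen with earlier results of these data known. All 10 members were described in each contrast. Of 25 other clock genes, those called in any contrast were named, with Npas2, Tef, Hlf, Ciart, Nfil3 and Bhlhe40. For Arntl, Dbp and Per1 the 5 most and the 5 least alike genes were named, passing over predicted genes. Fkbp5, Tsc22d3 and Fos stood for 10 glucocorticoid-induced and 14 immediate early genes (with Hspa1a and Hspa1b among the latter and Dusp1 in both lists). Cell type marker lists covered keratinocytes (99418 to 128865 summed CPM), leukocytes (6.03 to 30.9), fibroblasts (1.37 to 32.0), melanocytes (4.13 to 35.0), endothelium (0.589 to 8.65), skeletal muscle (0.949 to 6.72), hair follicle (10.4 to 27.4) and sebaceous gland (29.0 to 694).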

Additional observations from a re-analysis of the deposited data

Results flagged for a closer look

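Each of the 10 clock genes was examined in each of the 4 groups for a library far from the other 4, by Dixon's ratio of gap to range (critical value 0.71 for 5 samples). Chance gives such a gap in about 1 of 20 groups, and 40 were examined. It was found for Dbp in systemic control 5 at 36.5 CPM, where the next highest systemic control had 8.62 CPM, and for Nr1d1 in the same library at 161 CPM, where the next had 86.6 CPM. The library also had the lowest Arntl of its group, at 14.5 CPM. Without it, the log2 difference of Dbp between genotypes after systemic tamoxifen was 0.55 in place of -0.41, and that between routes in controls -1.23 in place of -0.27. Its hour of collection is not given in the sources used here, and the cause was not tested.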

How the results depend on the processing

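The log2 values of the 10 clock genes kept their sign in most alternatives. No clock gene was called by genotype after topical tamoxifen, or in the interaction, under any alternative. After systemic tamoxifen, where none was called, 1 (Per3) was called by DESeq2's Wald test, and 0 to 1 with each library left out. By route in controls the 4 calls became 0 with the satellite covariate and 2 to 5 with a library left out. Arntl was called besides them by DESeq2's Wald test, and Clock with only the libraries compared. By route in cKO the 1 call (Arntl) became 0 with no filter on low counts and 0 to 1 with a library left out. The labels state no pairing of mice by replicate number. Group-centred profiles of mice with the same number in compared groups had Pearson r from -0.31 to 0.34, which cannot decide whether they were paired. With the replicate block the call of Arntl was lost too (0.56, adjusted p = 0.0737), the block changed no other count of clock calls, and it turned the topical values of Arntl (3.6e-04), Clock (0.12), Cry1 (-0.070) and Cry2 (-0.027) and the systemic value of Per1 (-0.10).

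Sex as a covariate turned Arntl (0.0054) and Clock (0.010) by genotype after topical and Per1 (-0.050) and Nr1d1 (-0.015) after systemic tamoxifen. The satellite covariate turned Per3 after topical tamoxifen (-0.025), Nr1d2 after systemic tamoxifen (0.088) and by route in controls (-0.30), and Clock (0.067) and Nr1d2 (0.072) in the interaction. Leaving out 1 library turned the following values. By genotype after topical tamoxifen Arntl ran from -0.13 to 0.069, Clock from -0.33 to 0.11, Per3 from -0.076 to 0.26 and Nr1d2 from -0.042 to 0.25. After systemic tamoxifen Arntl ran from -0.068 to 0.12, Per1 from -0.14 to 0.19, Nr1d1 from -0.11 to 0.34 and Dbp from -0.64 to 0.55. In the interaction Arntl ran from -0.053 to 0.19, Nr1d1 from -0.49 to 0.079 and Dbp from -1.14 to 0.29. By route Nr1d2 ran from -0.11 to 0.21 and Dbp from -1.23 to 0.21 in controls, and Per3 from -0.097 to 0.32 and Cry1 from -0.059 to 0.24 in cKO. The cause was not tested.

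Across mice, the relations of Arntl had r from -0.72 to -0.44 (Dbp), -0.78 to -0.60 (Nr1d1) and -0.25 to 0.092 (Per3) with a library left out. By Pearson's r, those of Dbp and Nr1d1 lost their call in the topical libraries alone (-0.57 for Dbp, -0.72 for Nr1d1, whose rho of -0.77 still passed), the systemic libraries alone (-0.74 and -0.69) and without the 2 farthest libraries (-0.11 and -0.41, with 0.48 for Per3).

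Over all genes, the calls by genotype after topical tamoxifen were 16, but 43 with DESeq2's Wald test, 9 with the replicate block and 10 to 19 with a library left out. After systemic tamoxifen they were 235, but 544 with DESeq2's Wald test, 35 with only the libraries compared, 0 with the satellite covariate and 81 (without systemic cKO 6) to 787 (without systemic cKO 2) with a library left out. In the interaction they were 31, but 300 with DESeq2's Wald test, 49 with sex, 0 with the replicate block or the satellite covariate and 16 (without systemic cKO 5) to 470 (without systemic cKO 2) with a library left out. By route they were 2277 in controls, but 118 with the satellite covariate and 1463 (without systemic control 3) to 2524 with a library left out, and 1145 in cKO, but 746 (without topical cKO 5) to 1218.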
